A study of Mus musculus with 4 samples.

Results

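Goblet cells were selected from the single-cell libraries on 4 mucus transcripts. A barcode, which stands for 1 droplet, was kept when it held at least 2000 UMIs (unique molecular identifiers, each standing for 1 captured mRNA molecule), at least 200 genes and at most 20% mitochondrial UMIs. A kept barcode was taken as a goblet member when at least 3 of the 4 genes Muc2, Fcgbp, Zg16 and Clca1 were detected with a sum of at least 10 UMIs. In addition, the Paneth cell genes Lyz1, Defa24, Defa30 and Ang4 together had to hold below 1% of its UMIs, and the leukocyte gene Ptprc had to be at 0. The rule found 473 members among 11263 kept barcodes (4.2%). The library labelled ApcMin replicate 1 held 48 members, VApcMinL replicate 1 held 122, ApcMin replicate 2 held 160 and VApcMinL replicate 2 held 143. Since measured counts chose the members, the levels of the genes in the rule and the contrast of goblet members with other cells are given as a description. The rule genes stayed in the fits below, but none of their tests is used and the list summaries of the tests leave them out.

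Goblet cells are secretory cells of the intestinal epithelium that build, store and release mucus. The gel-forming mucin Muc2 is folded in the endoplasmic reticulum, heavily O-glycosylated in the Golgi and packed into granules with partner proteins, among them Fcgbp, Zg16, Clca1 and the trefoil peptide Tff3. The lineage arises from crypt progenitors through the transcription factor Atoh1, and Spdef drives its maturation. Wnt signaling, which Apc restrains, keeps crypt progenitors dividing, and Notch signaling steers them away from the secretory fates.

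The libraries were made from small intestinal adenomas of C57BL/6 mice aged 11 weeks, labelled male, with 3 to 10 tumors dissociated for a library and no sorting of cells. All mice carried ApcMin/+, a truncating mutation of 1 Apc copy, so no library is free of the tumor mutation. ApcMin mice carried Lef1 +/+, and VApcMinL mice carried floxed Lef1 with the Villin-Cre transgene, whose promoter is active in the intestinal epithelium, so that the transcription factor Lef1 is lost constitutively in epithelial cells only. Each group had 2 libraries, of which the first (replicate 1) used the 10x Genomics 3′ kit in version 2 and the second (replicate 2) in version 3. The labels do not tie the libraries to separate mice, so the p-values below measure only the spread between these libraries, which may be technical. The 2 VApcMinL libraries differed in their sex transcripts, given below, so their spread was not only technical.

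Below, the 4 values of a gene are given in library order, that is, first the ApcMin and then the VApcMinL library of kit 2, followed by the ApcMin and the VApcMinL library of kit 3. The libraries held from 44660305 to 128247396 UMIs, and the median depth of kept barcodes ran from 10994 to 26205 UMIs. The mitochondrial limit removed from 20.4% to 26.4% of the deep barcodes in 3 libraries and 61.5% in ApcMin replicate 2. The kit 2 pair shared 9 kept barcode sequences and the kit 3 pair shared 0, and no barcode sequence was a member in both libraries of a pair.

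The members went against some labels. Although every library was labelled male, UMIs of the female transcript Xist without those of Y-linked genes were found in 0, 121, 0 and 44 members in library order. Y-linked UMIs without Xist were found in 27, 0, 130 and 55 members. In VApcMinL replicate 2, 18 further members held both. In the members Lef1 was at 0, 6.59, 9.35 and 5.54 CPM (a unit in which the summed UMIs of each library were brought to 1 common total), which rested on 0, 25, 57 and 20 UMIs. The library labelled ApcMin replicate 1, with intact Lef1, was thus the one without a Lef1 UMI in its members, while both VApcMinL libraries held some. Of the Lef1 UMIs, 0, 21, 57 and 2 lay in members with below 0.1% of UMIs from the mucus genes (trace members, described below), of which ApcMin replicate 1 had 1. Other epithelial barcodes had Lef1 at 4.54, 11.1, 9.30 and 15.8 CPM. The libraries read 3′ ends, so a transcript that lacks inner exons would still be counted, and these values do not test the deletion. Libraries are therefore named by their labels throughout.

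The label of goblet cell was then checked against the markers. The rule sets a fixed number of UMIs, and deep barcodes can reach it with a small share. The 4 mucus genes held a median of 1.65%, 0.972%, 1.94% and 5.62% of the UMIs of a member in library order. Droplets with 10 to 100 UMIs, which hold mostly free RNA, carried the same genes at 0.227%, 0.408%, 0.181% and 0.103% of their UMIs. By number, 5, 54, 59 and 14 members lay below that share of free RNA.

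The members were therefore described in 3 ranges of this share. Mucus-rich members had at least 1% of UMIs from the 4 genes, intermediate members from 0.1% to 1%, and trace members below 0.1%. The limit of 1% was planned as an alternative and that of 0.1% was chosen after the values had been seen, so these are ranges of a score and not cell types. There were 277 mucus-rich members (28, 58, 90 and 101 in library order), 84 intermediate members (19, 17, 19 and 29) and 112 trace members (1, 47, 51 and 13). All 112 trace members lay below the share of free RNA of their library. Trace members were also the deepest, with medians of 50853, 73694 and 52852 UMIs in the last 3 libraries, while mucus-rich members had 9317, 11889, 9607 and 14098 UMIs. The mucus-rich share of members was 58.3% (exact 95% binomial interval 43.2 to 72.4), 47.5% (38.4 to 56.8), 56.3% (48.2 to 64.1) and 70.6% (62.4 to 77.9). These intervals, and those below, cover counting error only.

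**Figure D1:**
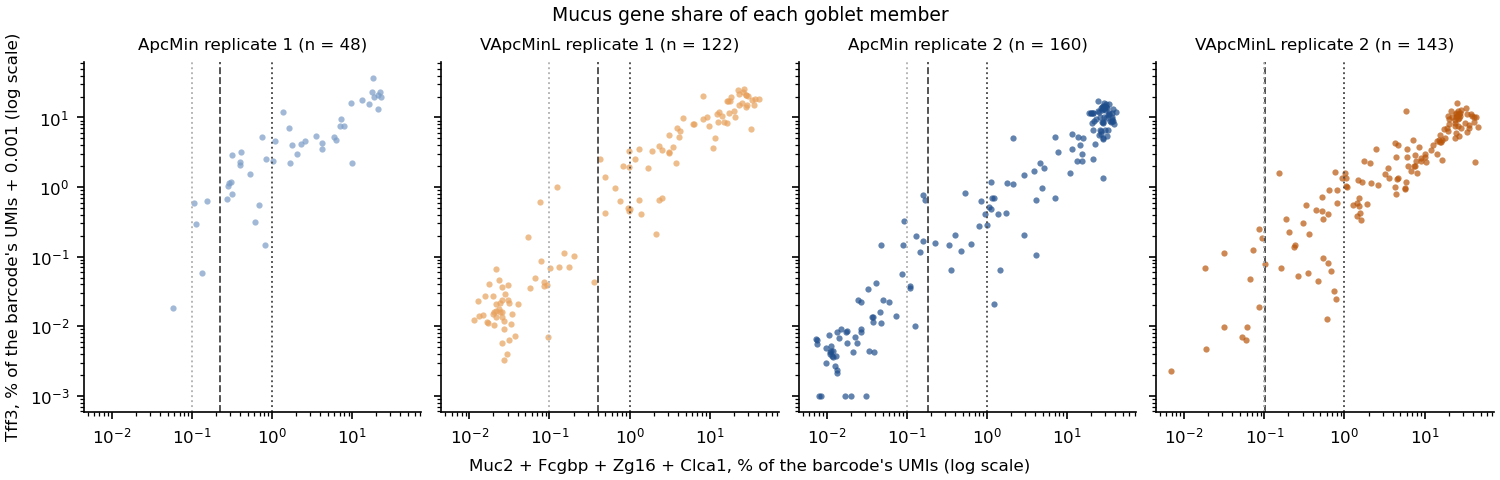
Each point is 1 of the 473 members, by library. The x axis gives the share of its UMIs from Muc2, Fcgbp, Zg16 and Clca1 (percent, log scale) and the y axis the share from Tff3 (percent plus 0.001, log scale). The dashed line marks the share of the 4 genes in free RNA and the dotted lines 0.1% and 1%. Most members right of 1% are high in Tff3, with library medians from 4.09% to 9.07% and a lowest value of 0.0201%, and the members left of 0.1% reach at most 0.616%.

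Tff3 and Spink4, the markers that the rule did not use, separated the ranges. Tff3, which encodes a peptide secreted with mucus that aids repair of the epithelium, stood at 68228, 81493, 52351 and 30724 CPM in mucus-rich members. In intermediate members it was at 12467, 10504, 3450 and 3671 CPM. Trace members of the last 3 libraries had 296, 84.6 and 538 CPM, beside 215, 78.8 and 38.9 CPM in other epithelial barcodes of the same libraries. In VApcMinL replicate 1 and ApcMin replicate 2 the Tff3 level of the trace members was thus close to that of epithelial barcodes which the rule rejected. When each barcode was thinned to 2000 UMIs, Tff3 was detected in 100%, 100%, 97.8% and 100% of mucus-rich members. T cells, which should lack it, showed a Tff3 UMI in 33.7%, 40.7%, 43.9% and 21.8%, at median depths from 2672 to 3651 UMIs before thinning. Trace members showed one in 34.0%, 17.6% and 38.5% in the last 3 libraries, so that 2 of these shares lay at or below the T cell background. Unthinned, the same shares were 100%, 90.2% and 100%. In VApcMinL replicate 2 the 13 trace members were above other epithelial barcodes, also in Atoh1 (18.2 against 0.709 CPM) and Agr2 (1892 against 537 CPM). The markers thus bear out the goblet label for the mucus-rich members. They do not for the trace members of VApcMinL replicate 1 and ApcMin replicate 2, and trace members are described here only as members of the rule.

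Members next to the thresholds showed the same. The 68 members with a sum of 10 to 12 UMIs had Tff3 at 174, 179, 92.2 and 194 CPM in library order. The 246 barcodes just outside, with a sum of 7 to 9 UMIs, had 178, 180, 62.4 and 29.1 CPM. At the Paneth limit, 26 members held from 0.5% to 1% of UMIs from the Paneth genes, and 19 barcodes that otherwise passed lay outside with 1% to 2%. Those 19 had Tff3 at 28018, 57023, 63108 and 7030 CPM, so the Paneth limit left out barcodes with far more Tff3 than other epithelial barcodes.

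The secreted mucus cargo took up a large part of the RNA of mucus-rich members. The 14 listed cargo genes together reached 175305, 240308, 224187 and 161516 CPM, beside 1618, 2814, 2891 and 1348 CPM in other epithelial barcodes. Of 13 cargo genes at 10 CPM or more, the 4 rule genes included, 9 were higher than in other epithelial barcodes in all 4 libraries and 1 was lower, with a median log2 ratio of 7.45. Over all 9468 genes at that level the counts were 905 and 4408 and the median was -0.42. Muc2, on chromosome 7 (141690340 to 141754693, plus strand, GRCm38), stood at 8214, 10822, 17491 and 11587 CPM. Fcgbp, whose product is cross-linked into the mucus gel, lies on chromosome 7 (28071236 to 28120862, plus strand) and was at 14875, 18310, 30654 and 16786 CPM. Both were highest in ApcMin replicate 2 and lowest in ApcMin replicate 1, so the libraries of 1 genotype lay at opposite ends.

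Zg16, a lectin-like protein that binds bacterial cell walls and keeps bacteria away from the epithelium, was the most abundant of the 4 rule genes. It lies on chromosome 7 (127050156 to 127087328, minus strand) and stood at 30116, 72022, 92909 and 69849 CPM. Clca1, on chromosome 3 (145003817 to 145032776, minus strand), encodes a protease that processes mucus and was the least abundant at 1450, 3466, 7445 and 2240 CPM. Spink4, on chromosome 4 (40920052 to 40931395, plus strand) and named as a protease inhibitor, was at 47236, 50056, 18530 and 25193 CPM. Tff3 lies on chromosome 17 (31125306 to 31129646, minus strand). Neither Tff3 nor Spink4 followed Muc2 across libraries, since both were higher in the kit 2 pair than in the kit 3 pair.

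Among the other secreted products, Retnlb, a resistin-like protein with antibacterial activity, varied widely between libraries, at 1316, 605, 86.2 and 202 CPM. It was at 2.89 CPM or below in other epithelial barcodes. Reg4, a secreted lectin, was at 2607, 4936, 2356 and 3017 CPM, beside 67.3, 37.2, 18.0 and 21.4 CPM. Of 8 listed defence genes at 10 CPM or more, Reg4 alone was higher in all 4 libraries. Of the others 2 were lower and 5 were mixed, and the median log2 ratio of the list was -0.11. Lypd8, an anchored protein that binds flagellated bacteria, was at 2869, 3188, 4159 and 4430 CPM. Trace members of the last 3 libraries also held it, at 1796, 1571 and 584 CPM. The airway mucin Muc5b had no UMI in any member, and Muc5ac, the mucin of the stomach surface, was at 16.7, 1.19, 0.607 and 9.58 CPM in mucus-rich members. Of the membrane mucins, Muc13 was higher than in other epithelial barcodes in all 4 libraries, at 864, 892, 938 and 655 CPM beside 261, 472, 582 and 182 CPM. The listed membrane mucins together were higher in enterocyte barcodes, a part of the other epithelial barcodes, than in mucus-rich members in every library. They stood at 1665, 1961, 1457 and 1065 CPM beside 1104, 1106, 1351 and 926 CPM. The listed defence genes together, Reg4 included, were also higher in enterocyte barcodes. They stood at 15846, 11929, 12515 and 19270 CPM beside 6616, 8890, 5103 and 6886 CPM in mucus-rich members. Reads of Muc3 and Muc3a, which are near-identical, cannot be told apart with certainty.

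Against other epithelial barcodes, the machinery that makes mucin was raised less than the cargo. It was not particular to mucus-rich members, in which the listed folding genes together stood at 14504, 13566, 15081 and 20069 CPM. Intermediate members had 16519, 15593, 17504 and 14573 CPM, lower only in VApcMinL replicate 2. Of 20 genes for mucin folding and the endoplasmic reticulum, 14 were higher in all 4 libraries and 0 lower, with a median log2 ratio of 0.62. Agr2, a disulfide isomerase needed for Muc2 folding, led them at 9062, 8490, 9128 and 13225 CPM, beside 452, 850, 368 and 537 CPM. Ern2, the stress sensor of mucous cells, was at 83.6, 90.3, 126 and 99.5 CPM beside 8.02, 9.27, 4.40 and 11.6 CPM. Hspa5, the general chaperone of the compartment, differed less, at 552, 593, 773 and 886 CPM beside 354, 452, 457 and 581 CPM. Xbp1, a transcription factor of the unfolded protein response, was at 223, 221, 225 and 225 CPM beside 224, 167, 104 and 89.0 CPM, so that it was not higher in ApcMin replicate 1.

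Of 19 O-glycan enzymes at 10 CPM or more, 13 were higher in all 4 libraries and 1 was lower, with a median log2 ratio of 1.38. Galnt12, which starts mucin O-glycans, was at 165, 163, 205 and 174 CPM beside 32.4, 31.8, 16.2 and 39.5 CPM. Gcnt3, which branches them, was at 243, 321, 261 and 230 CPM beside 61.4, 28.0, 15.9 and 56.1 CPM. C1galt1c1, the chaperone of the core 1 enzyme, was at 167, 164, 87.4 and 147 CPM beside 20.3, 27.2, 25.1 and 21.9 CPM. B3gnt6, which makes the core 3 structure known from the colon, reached at most 2.79 CPM in mucus-rich members. Galnt12, Gcnt3 and C1galt1c1 were thus higher than in other epithelial barcodes in every library, and the core 3 enzyme stood close to 0. The listed O-glycan enzymes together stood at 1804, 1920, 2259 and 2001 CPM in mucus-rich members. In enterocyte barcodes they stood at 2033, 2196, 1718 and 1506 CPM, so enterocytes were higher in kit 2 and lower in kit 3.

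Granule traffic and the fate factors followed the same pattern at lower levels. Of 12 genes of granule traffic, 8 were higher in all 4 libraries and 1 was lower. Sytl2, which tethers secretory vesicles, was at 97.6, 119, 279 and 217 CPM, beside at most 1.93 CPM in other epithelial barcodes. Rab27b, a small GTPase of secretory granules, was at 159, 157, 212 and 191 CPM beside 13.5, 22.6, 16.3 and 18.2 CPM. Of 12 secretory fate factors, 8 were higher in all 4 libraries and 2 were lower. Atoh1 was at 83.6, 134, 107 and 104 CPM beside 0.948, 0.353, 0.288 and 0.709 CPM. Spdef was at 86.4, 109, 139 and 110 CPM beside 11.0, 13.9, 7.02 and 14.8 CPM, and Klf4, which goblet maturation needs, at 418, 430, 438 and 327 CPM beside 135, 157, 193 and 114 CPM. For each of these factors the lowest mucus-rich library stood above the highest library of other epithelial barcodes.

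**Figure D2:**
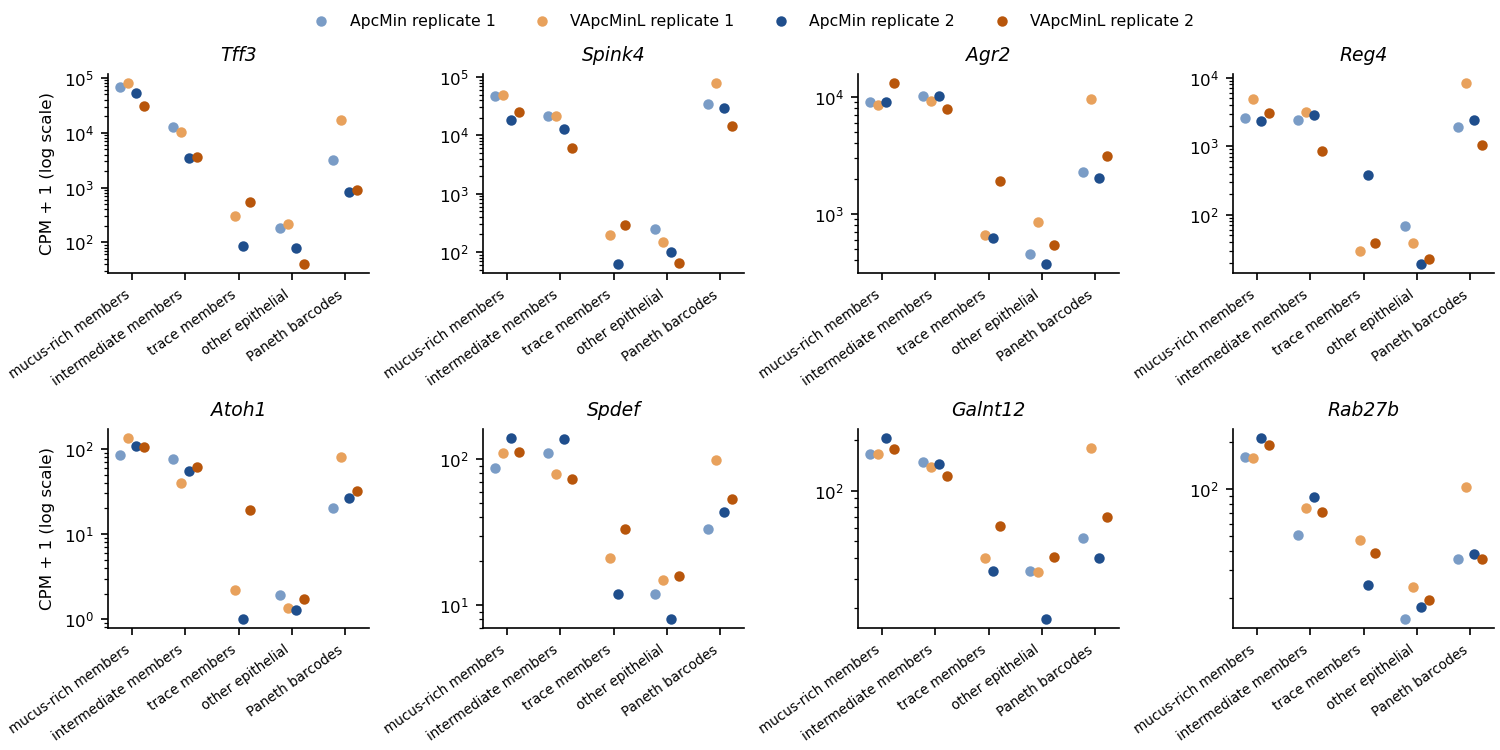
CPM plus 1 (log scale) of Tff3, Spink4, Agr2, Reg4, Atoh1, Spdef, Galnt12 and Rab27b in mucus-rich, intermediate and trace members, other epithelial barcodes and Paneth barcodes. Each point is 1 library; the trace value of ApcMin replicate 1, which has 1 barcode, is left out. Spink4 is higher in Paneth barcodes than in mucus-rich members in VApcMinL replicate 1 and ApcMin replicate 2. It is lower in ApcMin replicate 1 and VApcMinL replicate 2. Atoh1 runs from 83.6 to 134 CPM in mucus-rich members and stays below 1 CPM in other epithelial barcodes.

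Several goblet transcripts were shared with Paneth cells, the neighbouring secretory cells of the crypt base. The libraries held only 12, 8, 11 and 41 Paneth barcodes in library order. In Paneth barcodes Spink4 stood at 34069, 79372, 29140 and 14566 CPM, higher than in mucus-rich members in VApcMinL replicate 1 and ApcMin replicate 2 and lower in the other two libraries. Clps, a colipase, was at 1015, 969, 626 and 548 CPM in mucus-rich members and at 4243, 3684, 4910 and 2405 CPM in Paneth barcodes. Muc2 was at 1199, 3656, 1986 and 1475 CPM in Paneth barcodes, and Tff3 at 3156, 17361, 833 and 902 CPM. Hepacam2, an adhesion molecule, was at 231, 324, 301 and 271 CPM in mucus-rich members and at 49.4, 120, 29.2 and 35.9 CPM in Paneth barcodes. In the other direction, the 9 Paneth markers summed to 1913, 1633, 1009 and 1347 CPM in mucus-rich members and to 583, 226, 214 and 481 CPM in other epithelial barcodes. In every library Tff3 and Hepacam2 were higher in mucus-rich members than in Paneth barcodes and Clps was lower. For Spink4 the order changed between libraries. Muc2 was also higher in mucus-rich members in every library, but the class definitions largely set this order. The rule genes, Muc2 among them, had a lower limit in mucus-rich members and an upper limit in Paneth barcodes. Tff3 moved with Muc2 across mucus-rich members, so its order may not be independent of these limits, which was not tested.

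The 20 leading genes were taken by the lowest log2 ratio to other epithelial barcodes over the 4 libraries. In all members they were, in order, Fcgbp, Zg16, Muc2, Tff3, Clca1, Spink4, Ccl6, Reg4, Klk1, Clps, Hepacam2, Tpsg1, Rep15, Slc12a8, Selenom, Agr2, Rab27b, Defa24, Ramp1 and Gcnt3. Mucus-rich members shared 13 of these 20 and added Sval1, Retnlb, Bcas1, Fer1l6, Capn9, Atoh1 and Sytl2. Ccl6, a chemokine, was at 1048, 1156, 704 and 833 CPM in mucus-rich members and Klk1, a kallikrein protease, at 770, 984, 1107 and 1119 CPM. The Paneth genes Defa24 and Lyz1 were bounded by the rule, and their reads can be shared with near-identical copies.

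Mucus-rich members were lower in progenitor transcripts. All 7 Wnt targets at 10 CPM or more, and 9 of 10 cell cycle genes, were below other epithelial barcodes in all 4 libraries, with median log2 ratios of -2.71 and -1.06. Over all genes 4408 of 9468 were lower in all 4 libraries, with a median of -0.42, beside a mucus cargo that took up a large part of the total. The 8 listed Wnt targets summed to 27.9, 72.5, 29.7 and 136 CPM in mucus-rich members beside 241, 718, 419 and 418 CPM. The 10 cell cycle genes summed to 471, 702, 863 and 913 CPM beside 1897, 1340, 1017 and 2107 CPM. Trace members had 1880, 1856 and 2712 CPM of cell cycle genes in the last 3 libraries, above those of the other epithelial barcodes. After thinning to 2000 UMIs, at least 2 cell cycle genes were detected in 10.7%, 19.0%, 8.89% and 16.8% of mucus-rich members and in 68.4%, 35.3%, 21.1% and 69.0% of intermediate members. Other epithelial barcodes showed 38.7%, 28.9%, 19.6% and 44.8%, and T cells, which can divide, 37.3%, 26.2%, 21.1% and 29.8%. The share in mucus-rich members was the lowest of these classes in each library.

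Within the mucus-rich members, Muc2 moved with a small set of genes. Over 3820 genes detected in at least 20% of them in each library, the Spearman correlation of counts per 10000 UMIs with Muc2 was computed across barcodes of a library and averaged over the 4 libraries. Fcgbp came first with a mean of 0.74, followed by Tff3 with 0.72, Malat1 with 0.64, Clca1 with 0.63, Fer1l6 and Muc13 with 0.58, Zg16 with 0.52, Mxd1 with 0.50, S100a6 with 0.48 and Neat1 with 0.46. The most negative were Ndufa4 with -0.71 and Rps13 with -0.69, followed by Naca, Rpl34 and Rps2, which are genes of respiration and translation. Barcodes share depth and composition: the share of the 4 rule genes fell with depth within the mucus-rich members, with Spearman correlations of -0.60, -0.50, -0.11 and -0.49 over 28, 58, 90 and 101 barcodes. These correlations are given as a description.

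The sequence before the start sites of Muc2 and Fcgbp was read from RefSeq (GRCm38.p6), since Fcgbp was the gene most like Muc2 in mucus-rich members. In all members Tff3 came first, with a mean correlation of 0.90 against 0.88 for Fcgbp, and both Muc2 and Fcgbp are genes of the rule. The 250 bases before each start are shown 5′ to 3′ on the plus strand, with the letters CAGCTG in capitals, an E-box core of the kind that basic helix-loop-helix factors such as Atoh1 bind. The windows are chr7:141690090-141690339 for Muc2 and chr7:28070986-28071235 for Fcgbp.
Muc2: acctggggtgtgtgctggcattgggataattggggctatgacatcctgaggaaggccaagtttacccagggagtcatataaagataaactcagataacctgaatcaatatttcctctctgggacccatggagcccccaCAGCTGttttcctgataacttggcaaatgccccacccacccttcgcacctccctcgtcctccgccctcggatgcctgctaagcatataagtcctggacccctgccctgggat
Fcgbp: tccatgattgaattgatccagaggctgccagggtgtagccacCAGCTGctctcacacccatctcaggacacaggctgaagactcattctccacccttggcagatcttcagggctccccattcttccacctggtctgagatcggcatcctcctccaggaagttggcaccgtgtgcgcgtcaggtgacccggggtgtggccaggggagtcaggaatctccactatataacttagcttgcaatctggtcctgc
Each window held 1 CAGCTG, which is its own reverse complement, starting 112 bases before the start of Muc2 and 208 before that of Fcgbp. The letters CATAAA, searched for caudal factors, and GTAAACA, searched for forkhead factors, were looked for on both strands and had 0 matches in either window. Over 32851 promoter windows of the same length, 13.0% held CAGCTG, 10.8% CATAAA and 3.17% GTAAACA, and the motifs found did not overlap each other. A match describes these letters only. Of the 6 goblet markers, Zg16, Clca1, Tff3 and Spink4 are named only.

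Single mucus-rich members differed widely in how much of their RNA was mucus. The share of the 4 rule genes reached 23.1%, 41.6%, 40.8% and 47.0% of the UMIs of a barcode in library order. Zg16 alone had medians of 2.69%, 6.34%, 9.48% and 7.25% and highest values of 14.7%, 32.2%, 30.2% and 36.2%. Muc2 was more even, with medians of 1.01%, 1.31%, 2.82% and 1.40%. Tff3 had medians of 7.27%, 9.07%, 7.31% and 4.09%, and Spink4 of 4.32%, 2.58%, 0.434% and 1.63%. Clca1 was at 0 in 5, 4, 4 and 14 mucus-rich barcodes, while Muc2 was at 0 in none, so Clca1 was the rule gene most often missed.

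**Figure D3:**
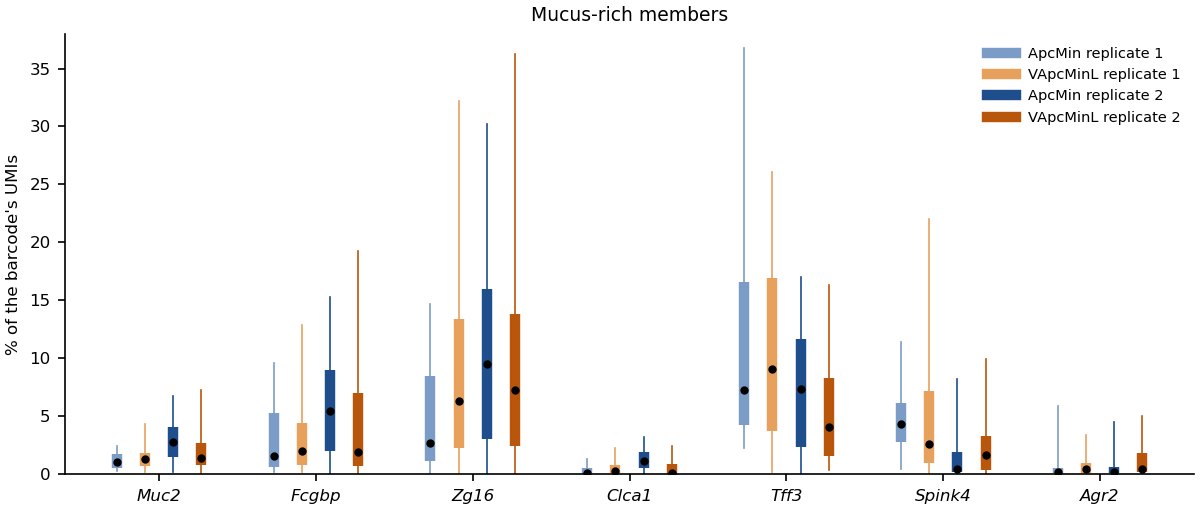
Share of a barcode's UMIs (percent) held by 7 goblet genes in the mucus-rich members of each library. The thin line spans the lowest to the highest barcode, the thick bar the quartiles, and the black dot is the median. Zg16 reaches 36.2% of the UMIs of a barcode, and Spink4 has its lowest median in ApcMin replicate 2, at 0.434%.

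The fate factors were seen in a minority of mucus-rich members at equal depth. After thinning to 2000 UMIs, Atoh1 was detected in 14.3%, 22.4%, 36.7% and 20.8%, against 0% of T cells in every library. Spdef was detected in 14.3%, 19.0%, 21.1% and 22.8%, against at most 0.806% of T cells. Reg4 was detected in 57.1%, 53.4%, 36.7% and 45.5%, and in 10.8%, 5.52%, 7.02% and 4.03% of T cells. Thus each of the 3 genes stood above the background of free RNA in all 4 libraries, and a missing UMI at this depth does not show that a cell lacks the transcript.

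The first comparison of the genotypes asked what share of the epithelium the goblet cells formed. Epithelial barcodes had no Ptprc UMI and at least 2 of the 5 genes Epcam, Krt8, Krt18, Krt19 and Cldn7. Members made up 2.45% (exact 95% binomial interval 1.81 to 3.23) of 1963 epithelial barcodes in ApcMin replicate 1 and 5.69% (4.75 to 6.76) of 2143 in VApcMinL replicate 1. In the kit 3 pair they made up 8.57% (7.34 to 9.94) of 1866 in ApcMin replicate 2 and 3.67% (3.1 to 4.31) of 3895 in VApcMinL replicate 2. The share was thus higher by 3.25 percentage points in the VApcMinL library of kit 2 and lower in that of kit 3, by -4.90 points. With every barcode thinned to 2000 UMIs, so that the fixed UMI sum of the rule met equal depth, these differences were 1.21 and -1.83 points. At a mitochondrial limit of 10% they were 4.16 and -9.04 points. The ApcMin libraries had a mean of 5.51% ± 4.33 (SD, n = 2). The VApcMinL mean was 4.68% ± 1.43 (SD, n = 2), a difference of -0.828 points (two-sided exact permutation test, p = 1.0). With 2 libraries against 2 the smallest p this test allows is 0.333. Mucus-rich members alone made up 1.43%, 2.71%, 4.82% and 2.59% of the epithelial barcodes, again higher in VApcMinL in kit 2 and lower in kit 3. The groups overlapped in both measures.

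**Figure D4:**
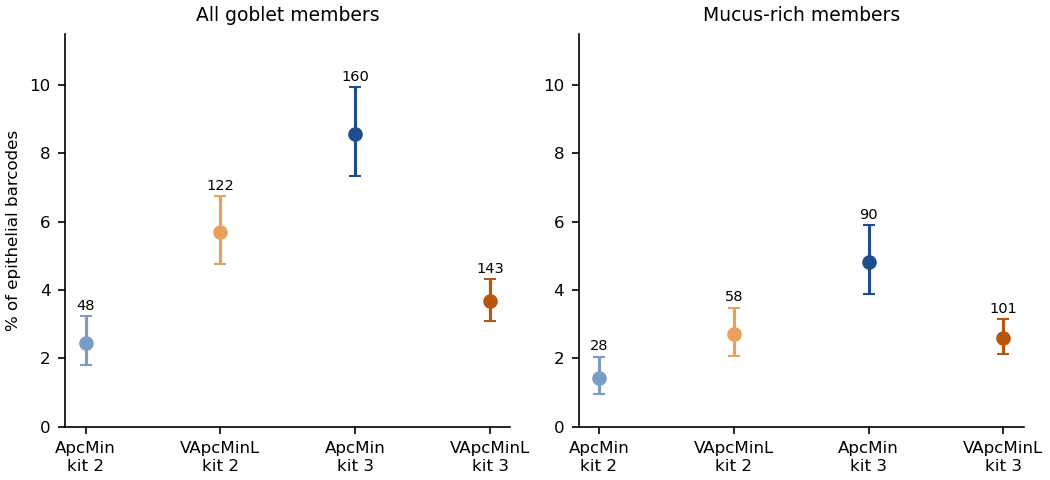
Goblet members as a percentage of epithelial barcodes in each library, for all members and for mucus-rich members. Bars through the points are exact 95% binomial intervals, and the numbers above are counts of members. The ApcMin libraries hold both the lowest share of all members, 2.45%, and the highest, 8.57%.

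The second comparison asked which transcripts differed between VApcMinL and ApcMin within the goblet members. UMIs were summed over the members of a library and compared by the edgeR quasi-likelihood test, in which the kit formed a block. Trace members held 17197 of 799363 summed UMIs in ApcMin replicate 1 and 2493001 of 3792896 in VApcMinL replicate 1. They held 3828817 of 6099134 in ApcMin replicate 2 and 714195 of 3608282 in VApcMinL replicate 2. The sums of VApcMinL replicate 1 and ApcMin replicate 2 thus came mostly from trace members, here and in the third comparison. Of 10814 genes tested, 2 (0.0185%) passed at an adjusted p below 0.05, 1 in each direction, and 158 had an unadjusted p below 0.05. No cargo, folding, glycan, granule, fate factor or defence gene passed. At an unadjusted p below 0.05 these lists held the cargo genes Tff2 and Itln1, the granule gene Nlrp6 and the defence gene Reg3a. Tff2, a trefoil peptide of the stomach, was at 315, 144, 214 and 123 CPM (log2 difference -0.97, SE 0.29, edgeR adjusted p = 1.0), and Itln1, a lectin that binds microbial sugars, at 288, 143, 349 and 217 CPM (log2 difference -0.85, SE 0.30, edgeR adjusted p = 1.0). For both, each ApcMin library lay above each VApcMinL library in all members. In ApcMin replicate 2, however, 1273 Itln1 UMIs lay in intermediate members and 534 in trace members. The order of Itln1 therefore need not hold in mucus-rich members. Xist (chromosome X, 103460366 to 103483254, minus strand) was at 0, 698, 0.164 and 306 CPM and was higher in VApcMinL (log2 difference 10.97, SE 0.58, edgeR adjusted p = 0.00033). It followed the sex differences between the libraries given above. Members with Xist UMIs and no Y-linked UMI lay only in the VApcMinL libraries, so sex differed along with genotype for every gene tested. Sex was not separated from genotype in these fits, and its part was not tested. In both pairs Xist was at most 1 UMI in the ApcMin members, so the fitted difference depends on the prior count and is no bound.

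Chgb (chromosome 2, 132781278 to 132795079, plus strand), a granin of enteroendocrine cells, was at 11.3, 0.264, 186 and 2.49 CPM and was lower in VApcMinL (log2 difference -6.03, SE 0.44, edgeR adjusted p = 0.00249). It rested on few barcodes: the 9 UMIs of ApcMin replicate 1 came from 1 barcode, and of the 1134 UMIs in ApcMin replicate 2, which came from 13 barcodes, 40.9% came from 1. Of those 1134 UMIs, 729 lay in trace members, 399 in intermediate members and 6 in mucus-rich members. The summed enteroendocrine markers moved with it, at 1332, 4.48, 334 and 9.70 CPM in all members, and 98.9% of the 1039 Cck UMIs of ApcMin replicate 1 came from a single barcode. Hemoglobin transcripts of red cells (563, 25.6, 0.820 and 4.71 CPM) and B cell transcripts (2035, 428, 6.23 and 6.37 CPM) were highest in ApcMin replicate 1, whereas the T cell markers stayed between 1.15 and 12.4 CPM. Chgb lost its call in each of the 4 fits that left out 1 library and had no block, in the fit of all 4 libraries without the block and with doublets removed. Xist lost its call too in the latter 2 fits (edgeR adjusted p = 0.0628 for both genes with doublets removed). The part of these markers in the genotype result was not tested.

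Of the 9 tested cargo genes outside the rule none passed, and all but Tff2 and Itln1 had an unadjusted p above 0.05 in all members. In all members the log2 difference between VApcMinL and ApcMin was -0.35 (SE 0.69) for Tff3, -0.02 (SE 0.82) for Spink4 and -0.10 (SE 0.76) for Agr2. Restricted to mucus-rich members it was -0.24 (SE 0.70), 0.28 (SE 0.61) and 0.24 (SE 0.47), and the edgeR adjusted p of each was 1.0 in both sets. Those 9 cargo genes had a median of -0.02 in all members and 0.04 in mucus-rich members, and the folding genes of -0.06 and 0.07. For O-glycan enzymes the median was -0.05 in both sets, for granule traffic -0.03 and -0.09, and for fate factors -0.06 and 0.00. The 8 defence genes had medians of -0.39 and 0.06. The median over all genes was 0.0068 in all members and -0.0046 in mucus-rich members. The SEs of 0.47 to 0.82 leave room for differences of over 1 on the log2 scale, so these values do not show that the genotypes are alike.

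**Figure D5:**
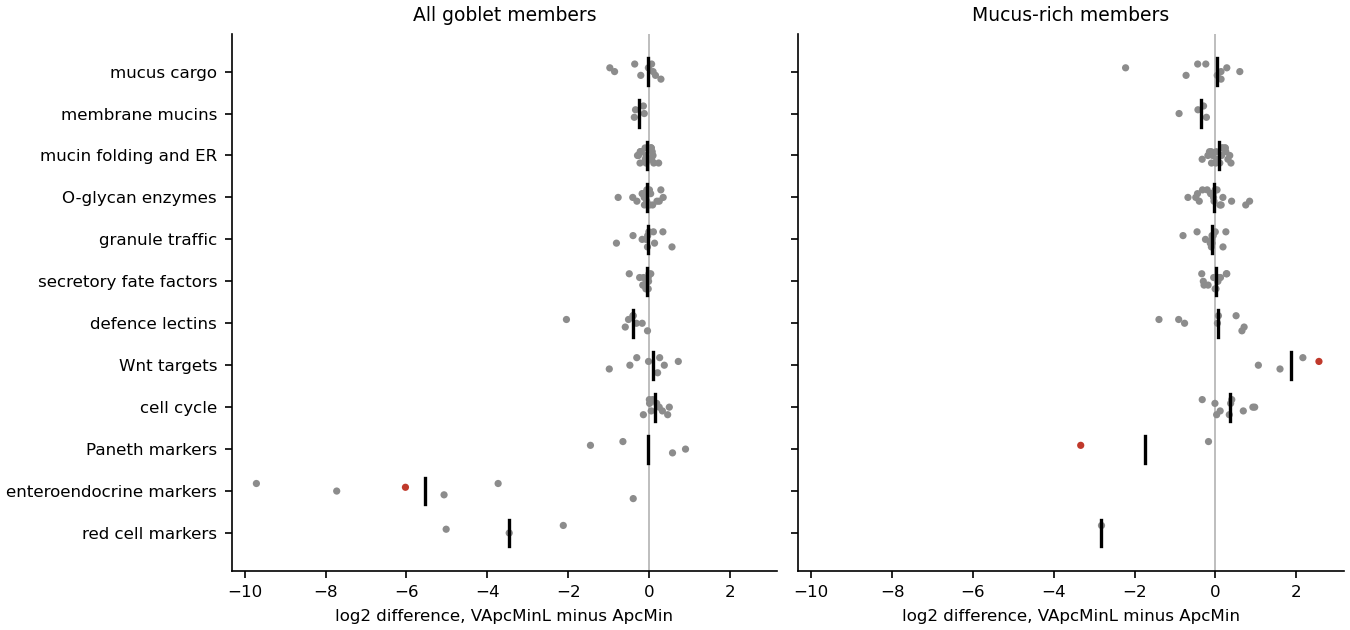
Log2 difference of VApcMinL against ApcMin for the genes of each list in all members and in mucus-rich members. Each point is 1 gene outside the rule, black bars are list medians, and red points had an edgeR adjusted p below 0.05. The mucus cargo, folding, glycan, granule and fate lists have medians between -0.09 and 0.07 and no red point.

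Limiting the test to the 277 mucus-rich members gave 8 calls among 8156 genes (0.0981%), 4 higher and 4 lower in VApcMinL. Lyz1 was one of them, and since the rule bounds it, it is given as a description, at 36.2, 194, 43.1 and 242 CPM. Xist again was higher (log2 8.96, edgeR adjusted p = 1.97e-08). Nkd1, a feedback inhibitor and target of Wnt signaling, was at 5.58, 23.8, 6.07 and 40.4 CPM (log2 2.56, SE 0.46, edgeR adjusted p = 0.0342). Plat, the tissue plasminogen activator, was at 2.79, 17.8, 2.43 and 28.2 CPM (log2 3.29, SE 0.61, edgeR adjusted p = 0.0382). In these genes both VApcMinL libraries lay above both ApcMin libraries. A gene can pass the filter on low counts through the libraries of 1 group, so genes high in 1 group can enter the test through that group alone. The UMIs were concentrated, with 70% and 50% of Nkd1 and 66.7% and 37.7% of Plat from 1 barcode in the VApcMinL libraries.

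The 4 lower genes were Mptx2, Anxa1, Defa17 and Plet1. Mptx2, a mucosal pentraxin with a close copy in Mptx1, was at 100, 3.56, 186 and 41.5 CPM (log2 -2.79, SE 0.39, edgeR adjusted p = 0.00254). Anxa1, a phospholipid-binding annexin, was at 25.1, 7.13, 171 and 21.3 CPM (log2 -2.75, SE 0.39, edgeR adjusted p = 0.00254), with ApcMin replicate 1 and VApcMinL replicate 2 close to each other. Defa17, a Paneth cell defensin with near-identical copies, was at 103, 5.94, 14.6 and 2.66 CPM (log2 -3.33, SE 0.49, edgeR adjusted p = 0.00292). Plet1, a surface protein of placenta and gut, was at 39.0, 1.19, 63.1 and 10.1 CPM (log2 -3.04, SE 0.45, edgeR adjusted p = 0.00292). In ApcMin replicate 2 a single barcode gave 96.1% of the Mptx2, 92.2% of the Anxa1 and 99.0% of the Plet1 UMIs. In ApcMin replicate 1 a single barcode gave 86.5% of the Defa17 and 71.4% of the Plet1 UMIs. Each of the 4 lower calls therefore rested on few cells in at least 1 ApcMin library. Of the 8 listed Wnt targets, 4 passed the filter on low counts in mucus-rich members, and of these Nkd1 alone was called. The median log2 difference of the 4 was 1.88. Since that filter can admit genes through the group where they are high, this median is not a result for the list. With mucus-rich members thinned anew to 5000 UMIs, at least 2 UMIs of the listed Wnt targets were found in 1, 2, 0 and 9 members. Of these, 0, 2, 0 and 4 were scored as doublets, and the part of doublets in the Nkd1 result was not tested. Without the block the number of calls was 0 in both sets of members, with 99 genes at an unadjusted p below 0.05 in all members and 89 in mucus-rich members. DESeq2, run with the block in all members, called 4.

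The third comparison asked whether the genotype difference of a gene differed between goblet members and other epithelial barcodes. The interaction term passed for 2 of 14088 genes (0.0142%) with the edgeR quasi-likelihood test. These were Pnliprp1, which encodes a relative of pancreatic lipase (log2 -4.46, SE 0.48, adjusted p = 0.0186), and Spock2, which encodes a proteoglycan of the extracellular matrix (log2 -4.46, SE 0.51, adjusted p = 0.0186). In the members Pnliprp1 was at 1.25, 4.48, 66.7 and 0.277 CPM and Spock2 at 1.25, 3.95, 67.1 and 0.277 CPM. Both were high in ApcMin replicate 2 alone. There 407 UMIs of Pnliprp1 came from 11 barcodes, 61.2% from 1 of them, and 409 UMIs of Spock2 came from 12 barcodes, 47.9% from 1. Trace members, which did not show the goblet label in that library, held 405 of these Pnliprp1 UMIs and 407 of the Spock2 UMIs. In mucus-rich members the interaction of either gene had the opposite sign, at 0.85 and 1.36, and did not pass. No gene of the goblet lists passed in all members.

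The last comparison was among the members. After thinning to 5000 UMIs, members with at least 2 UMIs of the Wnt targets Notum, Nkd1, Axin2, Wif1, Prox1, Lef1, Dkk2 and Dkk3 were set against members with 0. There were 45 such members (0, 14, 13 and 18 in library order), of which 35 had below 1% of UMIs from the mucus genes and 8 were scored as doublets. The 74 members below 5000 UMIs could not be placed. In the last 3 libraries the median mucus share of the Wnt-target members was 0.0236%, 0.0130% and 0.645%. In the members with 0 it was 1.36%, 1.94% and 5.92%. In VApcMinL replicate 1 and ApcMin replicate 2 the Wnt-target medians lay below the free RNA shares of 0.408% and 0.181%. The classes thus differed in mucus content as well as in Wnt targets, although 40, 42 and 20 of the members with 0 also lay below 1%. The classes also differed in depth, with medians of 46273, 100806 and 28148 UMIs in the Wnt-target members. The members with 0 had 19655.5, 26209.5 and 22764 UMIs. Thinning served to choose the classes, and the sums that were tested were not thinned. The comparison was tested in these 3 libraries with the library as a block.

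Of 9371 genes, 2439 (26.0%) passed with the edgeR quasi-likelihood test, 1011 (10.8%) higher and 1428 (15.2%) lower in the Wnt-target members. The number was 1106 without VApcMinL replicate 1, 666 without ApcMin replicate 2 and 1446 without the block. The 7 Wnt targets tested were higher, which the choice of the classes fixed. O-glycan enzymes were lower in 14 of 18, granule traffic genes in 8 of 11, secretory fate factors in 6 of 11, and enterocyte markers in 9 of 10. Of the 10 cell cycle genes 4 were higher. Of the 8 mucus cargo genes tested outside the rule 4 were lower (Retnlb, Spink4, Lypd8 and Tff1) and 1 was higher. That gene was Muc6, a gel-forming mucin known from the stomach (log2 2.21, SE 0.37, edgeR adjusted p = 0.00737). Over all genes 15.2% were lower and 10.8% were higher. Because the classes differed in mucus share, as given above, the falls of goblet genes cannot be told apart from that difference. The list counts are therefore a description of these classes and no result on Wnt targets within goblet cells. Among genes outside the rule and the Wnt list that held at least 20 CPM in the members with 0 in every library, the largest falls were Retnlb (log2 -6.78, SE 0.36), 2010109I03Rik (-6.16, SE 0.33), Spink4 (-5.43, SE 1.28), Reg4 (-5.25, SE 0.64) and Guca2a, the precursor of guanylin (-4.95, SE 0.95). Their edgeR adjusted p-values ran from 0.000797 to 0.0219, and Spink4 and Guca2a did not pass without the block.

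Other genes were higher in the Wnt-target members than in the others. In VApcMinL replicate 1, ApcMin replicate 2 and VApcMinL replicate 2, Bex1 was at 86.4, 273 and 44.0 CPM in the Wnt-target members and at 1.54, 1.05 and 1.91 CPM in the others (log2 6.19, SE 0.51, edgeR adjusted p = 0.00169). Ptn, which encodes the growth factor pleiotrophin, was at 67.4, 118 and 42.1 CPM against 2.32, 0.527 and 0 CPM (log2 6.02, SE 0.53, edgeR adjusted p = 0.00199). Sbspon, Ltf, which encodes lactoferrin, and Slc38a4, an amino acid transporter, followed with log2 differences of 5.14, 4.79 and 4.73. For each of these genes the lowest library of Wnt-target members lay above the highest of the others. Reg4 was at 14.6, 52.6 and 270 CPM in the Wnt-target members against 1954, 1789 and 2811 CPM. Tff3, at 1639, 40.6 and 8787 CPM against 25561, 20883 and 21402 CPM, did not pass (log2 -4.63, SE 1.45, edgeR adjusted p = 0.0536). The high Tff3 value of VApcMinL replicate 2 stood in the library where 8 of 18 Wnt-target members were mucus-rich and 6 were scored as doublets.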

How the data were processed

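Whole-number UMI counts per gene and barcode were deposited by the authors, with all barcodes listed and no cells selected. The study's methods name Cell Ranger 2.1.1 on its mm10 (GRCm38) reference, while 3.1.0 stands in the kit 3 file headers, and the submitters' processing notes also list Seurat 3.1.1. The 27514 genes with the same identifier in the tables of 27998 (kit 2) and 31053 (kit 3) genes were used.

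Members were taken by the rule given above, with no doublet step. UMI counts of the members were summed per library, since cells are not replicates. These sums entered edgeR 4.0.16 (R 4.3.3) and its quasi-likelihood test, with TMM scaling, filterByExpr at a minimum count of 10, the kit (or library, for classes within a library) as a block, and Benjamini-Hochberg adjustment over all genes tested, called at 0.05. Other epithelial barcodes were epithelial and neither members nor at 1% or more Paneth UMIs. Paneth barcodes held at least 3 of the 4 Paneth genes, at 1% of UMIs or more, and no Ptprc. They also had fewer than 10 UMIs, or below 1% of UMIs, from the 4 rule genes. Enterocyte barcodes were other epithelial barcodes with at least 5 of the listed enterocyte markers, which together held at least 2% of UMIs. T cells held Ptprc and at least 2 of Cd3g, Cd3e, Cd8a, Cd7 and Nkg7. Ratios of CPM used a pseudocount of 1. A replicate number stands for a kit in the labels and therefore for a batch that both groups share. Across 10814 genes, which are not independent, the 2 libraries of a kit deviated from their group means with a correlation of r = 0.24.

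Named genes were the goblet markers, members of the gene lists, the 20 leading genes, the 10 genes most like Muc2, and for each test up to 5 rises and 5 falls among called genes that moved 1 way in all pairs and reached 20 CPM in the higher group. Cck and the last negative correlates were named after their values were seen. The members and gene lists were chosen with earlier results of these data known. Alternatives were DESeq2 1.42.0 (test and size factors), no filter, no block, a mitochondrial limit of 10%, Scrublet doublets removed at 0.8% per 1000 barcodes (scanpy 1.11.5), a share of the rule genes of at least 1%, a floor of 5000 UMIs, thinning to 2000 UMIs, and leaving out each library. The edgeR test was checked on simulated counts. Start sites and gene positions were taken from RefSeq and GENCODE annotations of GRCm38.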

Additional observations from a re-analysis of the deposited data

Results flagged for a closer look

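The genotype difference of 2 genes differed between members of the rule and other epithelial barcodes by the interaction test of edgeR. Pnliprp1 had a log2 interaction of -4.46 (adjusted p = 0.0186) and Spock2 of -4.46 (adjusted p = 0.0186), and they rested on 11 and 12 barcodes of ApcMin replicate 2. There 405 of 407 UMIs of Pnliprp1 and 407 of 409 of Spock2 lay in trace members. In mucus-rich members the interaction turned direction, to 0.85 and 1.36. The part of these barcodes in the result was not tested.

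The goblet share of epithelial barcodes differed in direction between the kit pairs. It was higher by 3.25 percentage points in VApcMinL in kit 2 and lower in kit 3, at -4.90 points. With 1 library per group and kit this difference between the pairs was not tested. The libraries also differed in the share of deep barcodes removed by the mitochondrial limit, which was 61.5% in ApcMin replicate 2 and at most 26.4% in the other libraries.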

How the results depend on the processing

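The genotype test in all goblet members called 2 genes as reported. It called 1 with DESeq2 size factors, 4 with DESeq2, 55 with no filter on low counts, 5 at a mitochondrial limit of 10%, 0 with doublets removed (105 at an unadjusted p below 0.05), 8 with the rule genes at 1% or more, 1 at a floor of 5000 UMIs and 1 after thinning to 2000 UMIs. Without the replicate block it called 0 genes, and 0 also with the rule genes at 1% or more. Leaving out 1 library with the block leaves no residual degrees of freedom, so these fits were added without it after the data had been seen, and the lone library is assumed to vary like the others. They called from 0 to 2 genes in all members and from 2 to 45 in mucus-rich members, the latter with 45 calls without VApcMinL replicate 1 and 36 without VApcMinL replicate 2. Xist kept its direction in 18 of 18 alternatives and lost its call in 6 (log2 8.54 to 13.45, adjusted p 2.08e-63 to 0.462). Chgb kept its direction in the 13 alternatives that tested it and lost its call in 10 (log2 -8.21 to -2.39, adjusted p 7.65e-29 to 1.0).

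The interaction test called 48 genes with no filter, 0 against enterocyte barcodes (385 at an unadjusted p below 0.05; no other tool was run) and 69 in mucus-rich members, where Pnliprp1 (0.85) and Spock2 (1.36) turned direction. Leaving out 1 library gave from 1 to 50 calls. The difference in share (-0.828 points) kept its direction under 8 of 10 alternatives, at -2.44 points with a mitochondrial limit of 10% and -0.312 after thinning to 2000 UMIs. With each library left out in turn it ran from -3.89 to 2.24 points. It turned to 2.24 points without ApcMin replicate 2 and to 0.183 points without VApcMinL replicate 2. The comparison within the members gave 2439 calls as reported, 1471 with unthinned classes, 1456 with DESeq2, 1446 with no replicate block and from 666 (without ApcMin replicate 2) to 3474 when 1 library was left out. Of 80 values of its 10 named genes under alternatives, 76 kept direction and call and 4 lost the call. It was not run in mucus-rich members, where no library held 10 members of each class. Without the block Xist, Chgb, Spink4 (-3.38 in the comparison within the members) and Guca2a (-3.42) lost their calls, and the other named genes of that comparison kept theirs. The causes were not tested.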
